A study of Oryza sativa Indica Group with 6 samples.

Results

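A group of 233 genes, of 55982 locus IDs with a value in every sample, was active in the young panicle of the wild type and at a much higher level in the *ssh1* mutant. They were chosen from the expression values themselves: at least 0.5 FPKM in all 3 wild-type replicates, a mean of at least 10 FPKM in *ssh1*, and a lowest *ssh1* value of at least 4 times the highest wild-type value. FPKM counts the sequenced fragments of a gene after division by the length of its transcript and by the library total, so that levels can be set side by side between genes. Of the 55982 genes, 9651 met the limits on level alone, and the 233 were 2.41% of these. The rule used every value of the comparison of genotypes, and for that reason the difference between *ssh1* and the wild type is described below for these genes and not tested.

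RNA was taken from developing panicles of 0 to 4 cm, with 3 biological replicates per genotype and 5 field-grown plants pooled in each. The wild type is YIL100, an introgression line from a cross of the *indica* variety Teqing with a wild rice (*Oryza rufipogon*) accession, YJCWR. It carries the *SH4* gene of the wild parent and the *qSH1* gene of Teqing, and its seeds shatter. The *ssh1* mutant (genotype SSH1-/- in the sample labels) was found after EMS mutagenesis of YIL100 and holds a C-to-A change in the ninth intron of *SNB*, and it shares the introgressed background with its control. The mutant is 1 line from 1 mutagenesis, and other induced changes that it may carry were not analysed here.

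*SNB* (*SUPERNUMERARY BRACT*) encodes an APETALA2-like transcription factor. Factors of this family are targets of the microRNA miR172, and in grasses they control how long a spikelet meristem persists before it gives rise to a flower. At this stage the panicle holds branch, spikelet, and floral meristems, young glumes, and the pedicel where the abscission zone is laid down. In bulk tissue such as this, more cells of a type and more RNA per cell cannot be told apart.

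The libraries were checked first. *SNB* (LOC_Os07g13170) lay between 7.44 and 8.86 FPKM in *ssh1* and between 16.9 and 20.9 FPKM in the wild type, so that all mutant samples were below all wild-type samples. The floral MADS-box gene *OsMADS15* (LOC_Os07g01820) was present in all 6 samples, at 198 to 258 FPKM. *SH4* (LOC_Os04g57530) was uneven among the mutant libraries, at 7.85, 0.447, and 9.13 FPKM in *ssh1* replicates 1, 2, and 3. In the wild type it was at 4.05 to 5.33 FPKM, so that *ssh1* replicate 2 lay below every other sample. What set this replicate apart was not tested. Low FPKM values are multiples of what a fragment is worth, and their spacing showed that the depth of the libraries relative to replicate 1 of the wild type ran from -0.24 (*ssh1* replicate 1) to 0.06 (*ssh1* replicate 3) on the log2 scale. The total number of fragments is not known, so that no counting error can be given for a single value. The files name genes by MSU7 locus ID only and the gene table at hand matched 0 of these IDs, so that the genes are given by locus ID and markers of other tissues were not examined.

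As a group, the 233 genes went from a minor to a visible share of the transcriptome. They made up 0.240%, 0.241%, and 0.262% of all FPKM in wild-type replicates 1, 2, and 3, and 3.64%, 3.66%, and 2.53% in *ssh1* replicates 1, 2, and 3. The median member was at 4.20, 4.31, and 4.66 FPKM in the 3 wild-type replicates and at 77.7, 56.3, and 49.1 FPKM in the 3 *ssh1* replicates. Most of them were thus weakly expressed genes in the wild type that became more abundant than the typical gene in *ssh1*. The other 9418 genes that met the limits on level had a median mean of 26.4 FPKM in the wild type and 25.6 FPKM in *ssh1*. Mean levels of the 233 genes ran from 0.680 to 172 FPKM in the wild type and from 10.2 to 2780 FPKM in *ssh1*.

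**Figure D1:**
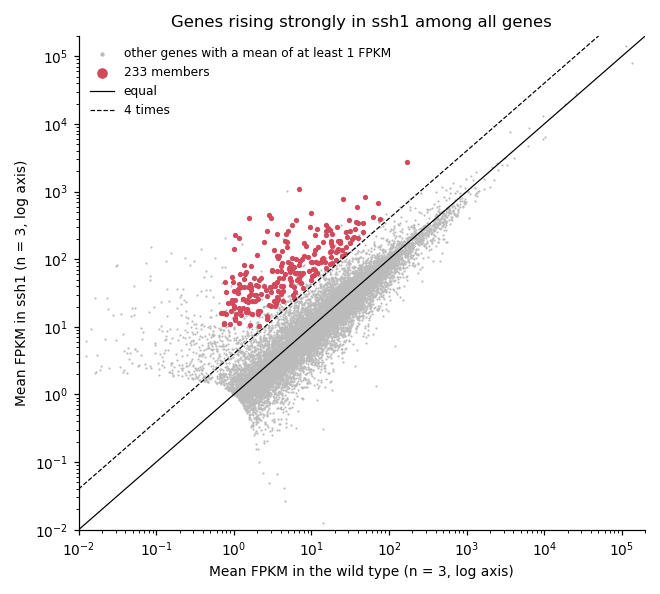
Mean FPKM of each gene in the wild type (horizontal, n = 3) and in *ssh1* (vertical, n = 3), both on log axes, for genes averaging 1 FPKM or more across all 6 samples; genes at 0 in either genotype are not drawn. The 233 genes chosen by the rule (red) lie above the dashed line of 4 times, and spread from about 1 FPKM to over 100 FPKM in the wild type.

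The ratio of the group means ran from 4.42 to 258 over the 233 genes, with a median of 13.1. The gap, defined here as the lowest *ssh1* value over the highest wild-type value, had a median of 7.11. It was at least 10 in 74 genes, at least 20 in 25, and under 5 in 55. The ratio of means was related to the level in the wild type. The 65 genes with a wild-type mean under 2 FPKM had a median ratio of means of 20.9, the 103 genes at 2 to 10 FPKM had 12.9, and the 65 genes at 10 FPKM and over had 7.43. The lower limits of the rule shape this relation, because a gene that is low in the wild type had to reach 10 FPKM in *ssh1*. On the log2(FPKM + 1) scale, the median difference was 3.25 over the 233 genes, beside -0.14 over the 18537 genes averaging 1 FPKM or more.

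The widest gap was that of LOC_Os03g18490 on chromosome 3. It had 1.01, 1.92, and 1.73 FPKM in the wild type and 368, 533, and 304 FPKM in *ssh1*. All 3 mutant replicates were more than 158 times the highest wild-type value. LOC_Os03g19270, also on chromosome 3, had 0.734, 1.48, and 0.890 FPKM in the wild type and 300.0, 226, and 152 FPKM in *ssh1*, a gap of 103. LOC_Os11g30500 had 3.10, 2.78, and 3.16 FPKM in the wild type and 497, 449.96, and 290 FPKM in *ssh1*, a gap of 91.7. In both genes *ssh1* replicate 1 was the highest and replicate 3 the lowest.

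LOC_Os03g04770, on the same chromosome, had nearly equal values in the wild type (0.936, 1.05, and 1.01 FPKM) and 175, 183, and 74.6 FPKM in *ssh1*. LOC_Os03g44380 had 2.82, 2.67, and 2.59 FPKM in the wild type and 401, 256, and 123 FPKM in *ssh1*. In these 2 genes the wild-type replicates were close to each other, with an SD of 5.84% and 4.32% of the mean, while *ssh1* replicate 3 was less than 0.5 times the other replicates. LOC_Os04g58280 had 2.93, 3.73, and 4.28 FPKM in the wild type and 285, 227, and 186 FPKM in *ssh1*. LOC_Os05g38660 had 4.81, 4.77, and 7.51 FPKM in the wild type and 349, 272, and 331 FPKM in *ssh1*. Their *ssh1* replicates were the closest among the 10 genes with the widest gaps, with an SD of 21.3% and 12.7% of the mean.

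LOC_Os12g05210 shows how far the mutant replicates could differ. It had 1.20, 1.34, and 1.002 FPKM in the wild type and 430, 47.7, and 142 FPKM in *ssh1*, so that replicate 1 was 9.01 times replicate 2. Its ratio of means, 175, therefore rests largely on 1 replicate, whereas its gap of 35.5 rests on the lowest. LOC_Os01g50910 also varied, with 1.56, 2.88, and 4.05 FPKM in the wild type and 653, 291, and 430 FPKM in *ssh1*.

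The most abundant of the 233 genes in *ssh1* was LOC_Os02g44870 on chromosome 2. It had 132, 212, and 171 FPKM in the wild type and 2940, 3115, and 2286 FPKM in *ssh1*, where it ranked 14 among all genes by mean level, against 531 in the wild type. It alone made up 8.54% to 10.2% of the summed FPKM of the 233 genes in the *ssh1* replicates. LOC_Os04g17100 had 43.5, 49.6, and 55.7 FPKM in the wild type and 985, 806, and 704 FPKM in *ssh1*, and moved from rank 2324 to rank 56. These genes were already well expressed in the wild type, and their gaps of 10.8 and 12.6 were far from the widest.

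LOC_Os01g37832 was the most even of the abundant genes. Its wild-type values were 39.3, 39.1, and 38.5 FPKM and its *ssh1* values 634, 599, and 571 FPKM, with an SD of 1.14% and 5.28% of the mean. LOC_Os11g44810 had 69.6, 65.9, and 82.7 FPKM in the wild type and 873, 515, and 641 FPKM in *ssh1*. LOC_Os02g16909 had 64.3, 59.5, and 65.3 FPKM in the wild type and 565, 283, and 411 FPKM in *ssh1*. The gap of the latter was 4.32, near the limit of the rule, although its mean in *ssh1* was 420 FPKM. The other abundant genes, LOC_Os06g05020, LOC_Os06g04990, and LOC_Os04g54300, lie next to further genes of the group and are described with them.

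**Figure D2:**
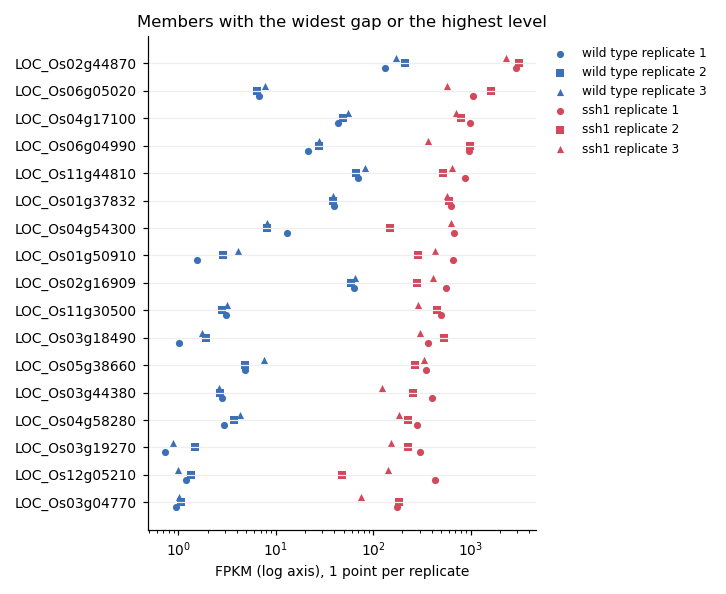
FPKM in each of the 6 samples (log axis, 1 point per replicate) for the 10 genes with the widest gap and the 10 with the highest mean in *ssh1*, 17 genes in all, ordered by mean level in *ssh1*. Wild-type replicates (blue) and *ssh1* replicates (red) do not overlap in any row, as the rule required, and the *ssh1* replicates of LOC_Os12g05210 spread from 47.7 to 430 FPKM.

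Genes just inside and just outside the limits differed little. LOC_Os02g33420 was the last gene inside, with 24.0, 27.3, and 23.02 FPKM in the wild type and 113, 109, and 110 FPKM in *ssh1*, a gap of 4.01. It was also the most even of the 233 genes in *ssh1*, with an SD of 1.58% of the mean. LOC_Os01g09320 (gap 4.06) was at 72.8 to 79.3 FPKM in the wild type and at 321 to 434 FPKM in *ssh1*, and LOC_Os04g43990 (also 4.06) at 4.30 to 6.39 FPKM and 25.9 to 65.8 FPKM. Outside the limit, LOC_Os01g28790 had 3.67, 18.1, and 2.14 FPKM in the wild type and 90.6, 87.4, and 72.1 FPKM in *ssh1*, so that replicate 2 of the wild type alone kept it out with a gap of 3.99. LOC_Os06g45710 (gap 3.93) was at 37.1 to 44.6 FPKM and 175 to 214 FPKM, and LOC_Os05g51670 (gap 3.91) at 3.42 to 4.51 FPKM and 17.6 to 48.8 FPKM.

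At the limit on the mutant level, LOC_Os11g39220 was inside with a mean of 10.2 FPKM in *ssh1* and LOC_Os03g04070 outside with 9.88 FPKM. At the limit on the wild-type level, LOC_Os10g30150 was inside with a lowest value of 0.517 FPKM. LOC_Os02g41840 was outside with 0.488 FPKM, although its *ssh1* values were 113, 41.5, and 78.9 FPKM.

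None of the genes of the study that were looked up here, its lignin genes and those given by accession, was in the group. Of 11 genes of lignin biosynthesis, the pathway that makes the monolignols that stiffen cell walls, 8 met the limits on level. The study chose these 11 on these samples and reports them as upregulated in *ssh1*, and each had a higher mean there. Of the 8, 0 were members, beside 2.41% of all genes at these levels, and nothing is read from so small a set. *PAL2* (LOC_Os02g41650) had means of 10.2 FPKM in the wild type and 55.1 FPKM in *ssh1*, but a gap of 2.45. The nearest were *4CL2* (LOC_Os02g08100) with a gap of 3.26 and *CCR20* (LOC_Os08g34280) with 3.24, encoding a 4-coumarate-CoA ligase and a cinnamoyl-CoA reductase. *4CL3* (LOC_Os08g34790) had a gap of 19.1 but was at 0.105 to 0.159 FPKM in the wild type and so below the limit there. Of 7 genes given by accession, most of which act in seed shattering, 0 were members. The study reports *SNB*, *qSH1*, and *SH5* as lower in *ssh1*, so that nothing is read from their absence here. From the wild type to *ssh1*, means went from 49.3 to 25.5 FPKM in *qSH1* and from 79.2 to 31.6 FPKM in *SH5*. In *SNB*, *qSH1*, *SH5*, and *SHAT1*, every *ssh1* value was below every wild-type value. The widest gap of the 7 was the 0.995 of *SH-H* (LOC_Os07g10690). It was at 33.4 to 34.3 FPKM in the wild type and 34.1 to 38.0 FPKM in *ssh1*.

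The locus ID of MSU7 gives the chromosome and a number that rises along it, and position was not used by the rule. The 233 genes lay on all 12 chromosomes. Chromosome 1 held 52 of them, or 3.63% of its genes that met the limits on level. On the other chromosomes this share ran from 1.76% (13 genes on chromosome 6) to 2.80% (12 genes on chromosome 10). Chromosome 7, where *SNB* lies, held 13 (1.79%). The nearest members on either side of *SNB* were LOC_Os07g02800, with 969 listed loci in between, and LOC_Os07g26630, with 1131, so that none was a close neighbour of the mutated gene.

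Several members were direct neighbours. In 16 of the 233 genes (6.87%) the next listed locus on at least 1 side was also a member, whereas 116 of the 9418 other genes at these levels (1.23%) lay beside a member. Within 50 in locus number, the counts were 38 (16.3%) and 511 (5.43%). The 16 genes formed 6 pairs and a run of 4.

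The run of 4 lies on chromosome 6. LOC_Os06g04990 had 21.6, 28.0, and 27.4 FPKM in the wild type and 960, 982, and 361 FPKM in *ssh1*. LOC_Os06g05000 had 16.1, 16.8, and 12.9 FPKM in the wild type and 252, 405, and 138 FPKM in *ssh1*. In both, all mutant replicates were above all wild-type replicates and replicate 3 was the lowest of the mutant. LOC_Os06g05010 had 5.26, 3.38, and 4.94 FPKM in the wild type and 178, 258, and 116 FPKM in *ssh1*. LOC_Os06g05020 had 6.69, 6.43, and 7.82 FPKM in the wild type and 1068, 1619, and 570 FPKM in *ssh1*, a ratio of means of 156. The 4 genes shared 1 order of the *ssh1* replicates, with replicate 2 the highest and replicate 3 the lowest. This order was frequent in the group, in 74 of the 233 genes (31.8%). Neither flanking locus was active. LOC_Os06g04980 on one side was at 0.0466 to 0.440 FPKM in all 6 samples and LOC_Os06g05030 on the other was listed at 0 in all 6.

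The pair on chromosome 4 at LOC_Os04g54300 and LOC_Os04g54310 did not move together among the mutant replicates. LOC_Os04g54300 had 12.9, 8.20, and 8.17 FPKM in the wild type and 669, 151, and 631 FPKM in *ssh1*. LOC_Os04g54310 had 7.29, 1.14, and 5.54 FPKM in the wild type and 163, 225, and 313 FPKM in *ssh1*. Replicate 2 of *ssh1* was thus the lowest for the former and in the middle for the latter. Another member, LOC_Os04g54240, lay 5 listed loci below the pair and was even in the mutant, with 104, 94.3, and 103 FPKM against 5.48 to 7.30 FPKM in the wild type. LOC_Os04g54280, directly beside the pair, had 8.06, 9.75, and 9.76 FPKM in *ssh1* and 0.335 to 0.452 FPKM in the wild type, and was therefore too low for the group.

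LOC_Os04g44500 and LOC_Os04g44510, also on chromosome 4, had almost the same levels. They were at 2.71, 1.48, and 2.42 FPKM and at 2.62, 1.55, and 2.07 FPKM in the wild type, and at 19.2, 21.9, and 11.1 FPKM and 17.9, 19.3, and 14.7 FPKM in *ssh1*. The order of all 6 samples was the same in both genes within each genotype, and 31.8% of the 233 genes had this order of the *ssh1* replicates. Whether reads were shared between similar copies was not tested. In the pair on chromosome 2, LOC_Os02g54130 had 17.6, 17.4, and 18.8 FPKM in the wild type and 117, 121, and 86.1 FPKM in *ssh1*, and LOC_Os02g54140 had 3.60, 6.76, and 3.21 FPKM and 49.0, 82.5, and 52.8 FPKM. The loci on either side of this pair were active too. LOC_Os02g54120 was at 10.97 to 16.6 FPKM over all samples. LOC_Os02g54150 was at 19.6 to 21.2 FPKM in the wild type and at 24.8 to 26.3 FPKM in *ssh1*, higher in every mutant replicate. Neither neighbour rose to the extent of the pair.

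Chromosome 10 held a couple of pairs. LOC_Os10g37660 had 3.21, 2.79, and 3.36 FPKM in the wild type and 81.2, 78.4, and 49.4 FPKM in *ssh1*, and LOC_Os10g37670 had 0.785, 0.629, and 0.625 FPKM and 18.8, 13.8, and 15.6 FPKM. LOC_Os10g39640 had 1.41, 3.36, and 1.53 FPKM in the wild type and 89.6, 33.7, and 26.2 FPKM in *ssh1*, and LOC_Os10g39660 had 1.21, 1.17, and 1.02 FPKM and 54.6, 27.6, and 13.9 FPKM. Both genes of the latter pair were highest in *ssh1* replicate 1, as were 59.7% of the 233 genes. Of their flanking loci, LOC_Os10g39620 was at 78.0 to 86.7 FPKM in the wild type and at 98.4 to 116 FPKM in *ssh1*, higher in every mutant replicate. LOC_Os10g39670 was at 13.7 to 23.2 FPKM over all samples. The last pair, LOC_Os01g19800 and LOC_Os01g19820 on chromosome 1, was at 0.686 to 2.29 FPKM in the wild type and at 5.47 to 38.7 FPKM in *ssh1*, and lay between loci listed at 0 in all samples.

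**Figure D3:**
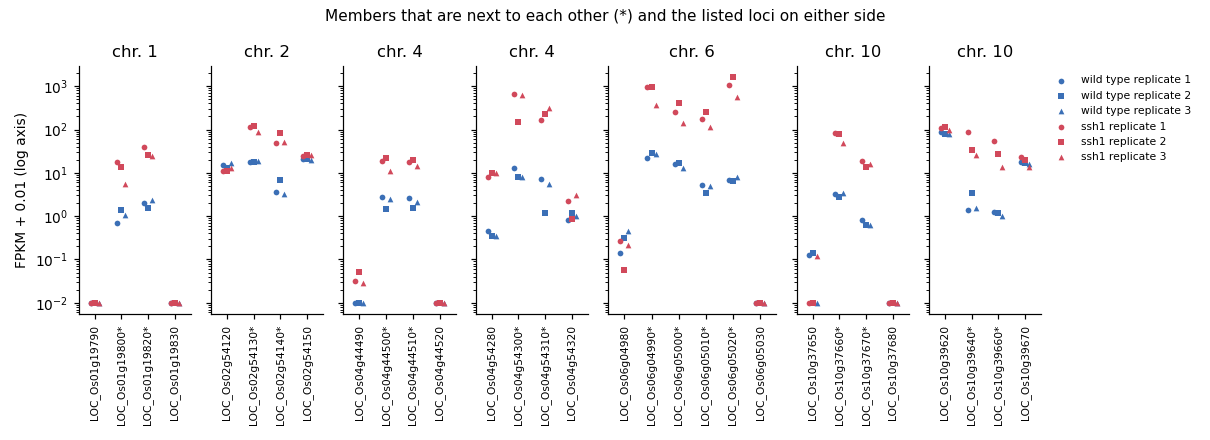
FPKM + 0.01 (log axis) in each sample for the 16 members that are next to another member (asterisks) and for the listed locus on either side, in order of locus number and by chromosome. In each run the *ssh1* replicates (red) lie above the wild-type replicates (blue) at the members, and the points at the bottom are loci listed at 0.

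A group of 4 members near the starts of chromosomes 11 and 12 was singled out after its values were seen, since in rice these regions are known to hold a duplicated segment. LOC_Os11g04409 had 3.45, 4.09, and 4.54 FPKM in the wild type and 66.8, 107, and 30.7 FPKM in *ssh1*, and LOC_Os12g04204 had 8.85, 9.58, and 11.1 FPKM and 80.8, 146, and 47.5 FPKM. The order of the samples was the same in both genes, and 31.8% of the 233 genes had this order of the *ssh1* replicates. LOC_Os11g02080 had 3.58, 4.59, and 2.92 FPKM in the wild type and 99.7, 169, and 44.7 FPKM in *ssh1*, and LOC_Os12g02040 had 1.39, 1.48, and 1.23 FPKM and 66.9, 54.2, and 31.8 FPKM. Here the mutant replicates differed in order. LOC_Os12g05210, described above, lies farther along chromosome 12 and had another order again, with replicate 1 the highest and replicate 2 the lowest in *ssh1*. The files do not say which loci are copies of each other, and sharing of reads was not tested.

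The 3 *ssh1* replicates did not contribute equally. Replicate 3 was the lowest of the 3 in 162 of the 233 genes (69.5%), replicate 2 in 63 (27.0%), and replicate 1 in 8 (3.43%). Replicate 1 was the highest in 139 (59.7%), replicate 2 in 78 (33.5%), and replicate 3 in 16 (6.87%). The rule did not fix this order. Among the 9418 other genes at these levels, replicate 3 was the lowest in 29.5% and the highest in 39.1%. Genes of a library are not independent, so these shares describe the 3 libraries. When each sample was rescaled to a common sum of FPKM, replicate 3 was the lowest in 178 genes, while replicate 2 (114 genes) and no longer replicate 1 (108) was the most often highest. The median difference from the wild-type mean on the log2(FPKM + 1) scale was 3.57, 3.30, and 2.83 in *ssh1* replicates 1, 2, and 3.

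The order was also counted in genes lower in *ssh1*. In the 32 genes that met the same rule with the genotypes exchanged, 26 (81.2%) had their highest mutant value in replicate 3 and 1 its lowest. The lowest mutant value was in replicate 2 in 19 (59.4%) and in replicate 1 in 12 (37.5%). In the deposited FPKM, the replicate farthest from the wild type was thus most often replicate 2 here and replicate 1 among the 233 genes. This contrast depends on scaling, since with a common FPKM sum replicate 2 was the most often highest among the 233 genes (114 against 108). The 32 genes were not rescaled. In the 51 genes that were below 0.5 FPKM in every wild-type replicate and above 5 FPKM in every *ssh1* replicate, replicate 3 was the lowest in 27 (52.9%) and replicate 1 the highest in 36 (70.6%). In all 3 sets replicate 3 was thus most often the mutant replicate nearest to the wild type. The difference between the sets was not tested, since all of them were chosen from the same values.

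**Figure D4:**
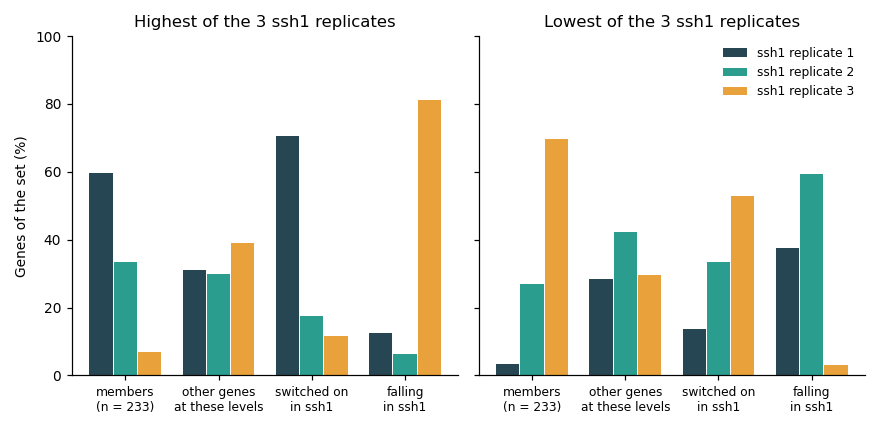
Share of genes (%) in which each *ssh1* replicate was the highest (left) or the lowest (right) of the 3, for the 233 members, the 9418 other genes that met the limits on level, the 51 genes switched on in *ssh1*, and the 32 genes lower in *ssh1* by the mirrored rule. Replicate 3 was the lowest in 69.5% of the members and the highest in 81.2% of the lower genes.

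The spread within *ssh1* was wide. The SD of the 3 *ssh1* replicates had a median of 27.5% of the mean over the 233 genes and reached 99.0%, beside a median of 14.5% for their wild-type replicates. For the other genes at these levels the medians were 9.66% in *ssh1* and 5.99% in the wild type. In 84 of the 233 genes (36.1%) the highest *ssh1* value was under 1.5 times the lowest, against 83.4% of the other genes. The wide spread was not particular to the 233 genes. This share was 29.4% in the 51 genes switched on in *ssh1* and 28.1% in the 32 lower genes. The median SD in *ssh1* was 41.4% and 26.9% of the mean in these 2 sets. The median mean level of the 233 genes was lower than that of the other genes in the wild type (4.33 against 26.4 FPKM) and higher in *ssh1* (63.7 against 25.6 FPKM), and the part of level in the spread was not tested.

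In part of the genes a mutant replicate stood apart from both others. Replicate 3 was at most 0.5 times both other *ssh1* replicates in 21 of the 233 genes (9.01%, against 0.573% of the other genes), and replicate 1 was at least 2 times both others in 14 (6.01%, against 0.69%). Both patterns were more frequent in the 51 genes switched on in *ssh1*, with 11 (21.6%) and 10 (19.6%). In the 32 genes lower in *ssh1* the counts were 0 and 0, but a distance from the wild type has the opposite direction there. Replicate 3 was at least 2 times both others in 1 of these 32 genes (3.12%). Replicate 2 was at most 0.5 times both others in 2 (6.25%), and replicate 1 in 0. LOC_Os01g03340 had the widest ratio, singled out after its values were seen, with 304, 118, and 30.6 FPKM in *ssh1* and 4.14 to 5.74 FPKM in the wild type. LOC_Os01g03360, which lies 2 listed loci above it, had 85.7, 31.2, and 9.92 FPKM in *ssh1* and 1.37 to 2.21 FPKM in the wild type. The highest mutant replicate was 9.93 and 8.63 times the lowest in these 2 genes, which stand near each other and share the order of the replicates. That order was the most frequent of the group, in 88 of the 233 genes (37.8%). Replicate 2 was at least 2 times both others in 3 genes, LOC_Os10g28340, LOC_Os05g44340, and LOC_Os05g38530, and replicate 3 in 0. Replicate 2 was at most 0.5 times both others in 5 of the 233 genes (2.15%), against 2.82% of the other genes. Over the 18537 genes averaging 1 FPKM or more this share was 6.47%, the highest of these patterns in *ssh1*. The rule acts on the lowest *ssh1* value, and so bears on how often a low replicate is seen among the 233 genes.

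Among the wild-type replicates, replicate 2 stood apart most often. It was at least 2 times both others in 9 of the 233 genes (3.86%), while replicate 3 was so in 1 and replicate 1 in 0. Over the 18537 genes averaging 1 FPKM or more, replicate 2 was at least 2 times both others in 1.75%, and over the 9418 other genes at the levels of the group in 0.319%. LOC_Os06g46950, singled out for its size, had 5.14, 23.4, and 5.16 FPKM in the wild type and 140, 160, and 117 FPKM in *ssh1*. LOC_Os03g60080 had 3.77, 10.7, and 4.67 FPKM in the wild type and 427, 453, and 256 FPKM in *ssh1*. Even the highest wild-type value was below every mutant value in both, as the rule required.

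Because the choice of genes and their description used the same values, the rule was also applied with 1 replicate left out, and the genes so chosen were read in the unused replicate. This reading was added after the data had been seen, and it is a description: when an *ssh1* replicate is left out, the ratio still divides by the highest wild-type value that chose the genes, and the reverse holds for a wild-type replicate. Without *ssh1* replicate 1, 234 genes were chosen, and in the unused replicate 233 of them were at least 4 times the highest wild-type value, with a lowest gap of 3.93 and a median of 13.0. Without replicate 3, 306 genes were chosen, of which 236 (77.1%) were at least 4 times the highest wild-type value in replicate 3, with a median gap of 6.30, and 0 were at or below it. Without replicate 2, 278 genes were chosen, of which 233 (83.8%) reached 4 times and 6 were at or below the highest wild-type value in replicate 2. When a wild-type replicate was left out, 251 to 262 genes were chosen and the unused replicate stayed below the lowest *ssh1* value in all of them.

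**Figure D5:**
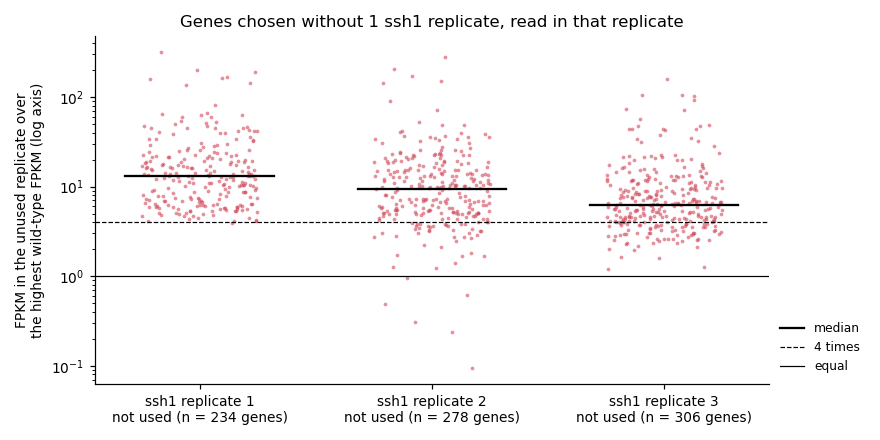
For genes chosen by the rule without 1 *ssh1* replicate, the FPKM in that unused replicate over the highest wild-type FPKM (log axis, 1 point per gene, horizontal bar at the median). The medians were 13.0, 9.47, and 6.30 for *ssh1* replicates 1, 2, and 3. Points below the solid line are the 6 genes that in replicate 2 were below the highest wild-type value.

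The 6 genes that failed in *ssh1* replicate 2 were at least 4 times the highest wild-type value in the other replicates, as their choice required. LOC_Os06g19200 had 132, 5.59, and 143 FPKM in *ssh1* and 16.2 to 23.3 FPKM in the wild type. LOC_Os01g15270 had 231, 17.9, and 143 FPKM in *ssh1* and 5.81 to 29.1 FPKM in the wild type. LOC_Os11g29810 had 9.84, 0.126, and 10.8 FPKM in *ssh1*, with 1.21 to 1.35 FPKM in the wild type. In each of these genes replicate 2 was lower than the highest wild-type replicate. LOC_Os10g33990, LOC_Os01g68650, and LOC_Os07g12340 were at 1.06, 1.10, and 3.45 FPKM in replicate 2 and at 15.4 to 42.0 FPKM in the other *ssh1* replicates. None of the 6 could be a member of the group of 233, since the rule needs all 3 *ssh1* replicates.

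Outside the group, the genes whose levels over the 6 samples were most like the mean profile of the 233 genes were found by Pearson's correlation of log2(FPKM + 1) among 9554 genes averaging 10 FPKM or more in *ssh1*. With 6 samples and a large difference between genotypes many genes come close to 1. The top 3 were LOC_Os11g38870 (r = 0.9997), LOC_Os02g43330 (r = 0.9995), and LOC_Os03g51350 (r = 0.9993). LOC_Os11g38870 had 9.65, 9.64, and 9.68 FPKM in the wild type and 28.2, 25.3, and 23.7 FPKM in *ssh1*, a smaller difference with the order of the *ssh1* replicates of the mean profile. LOC_Os02g43330 had 0.105, 0.117, and 0.174 FPKM in the wild type and 138, 82.0, and 65.8 FPKM in *ssh1*. LOC_Os03g51350 had 0.0804, 0.0902, and 0.0896 FPKM and 205, 141, and 113 FPKM. The latter 2 were below the limit of 0.5 FPKM in the wild type and so belong to the genes switched on in *ssh1*.

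Fitted over all 18537 genes with limma on log2(FPKM + 1), 591 genes (3.19%) were higher in *ssh1* by 2-fold or more with a Benjamini-Hochberg adjusted p under 0.001, the thresholds of the study. After median-of-ratios scaling, 684 were higher and 276 lower, against 591 and 356 before it. Of the 233 genes, 191 were among them, and nothing is read from this count because the rule used the same comparison. The 42 genes that were not called differed by at least 2.43 on the log2(FPKM + 1) scale, with an adjusted p from limma of at most 0.00995. Their mutant replicates were more uneven, with a median SD of 55.4% of the mean against 24.3% in the 191 called, and LOC_Os01g03340 and LOC_Os01g03360 were among them. The count of 191 fell to 39, 73, and 46 without wild-type replicate 1, 2, and 3, and to 127 without *ssh1* replicate 1.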

How the data were processed

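Per the labels and the study's methods, the authors extracted total RNA from young panicles with TRIzol, made paired-end TruSeq libraries, sequenced them on an Illumina HiSeq, mapped the reads with TopHat2 at default settings to the Nipponbare reference (IRGSP-1.0) with the MSU7 annotation, and had Cuffdiff compute FPKM per gene. Tool versions are not given in the sources used here. Each deposited table gives the FPKM of 1 replicate. Replicates of a genotype shared 0% of their nonzero values, and 4 locus IDs that occur repeatedly were dropped. The reads behind similar copies cannot be traced in FPKM.

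The members and lists were chosen with earlier results of these data known. The rule was applied to the deposited FPKM with no pseudocount. For the whole table, limma 3.58.1 in R 4.3.3 (mean-variance trend, genotype as the only term) was fitted to log2(FPKM + 1) of the 18537 genes averaging 1 FPKM or more, after a test on simulated data. FPKM keeps no count of fragments, so that no count test was run, and the added 1 FPKM understates the change of low genes. Named genes were the 10 with the widest gap, the 10 with the highest mean in *ssh1*, and neighbouring members. Also named were the 3 on either side of the fold limit and the 3 most alike genes outside. The study's lignin genes and the genes it gives by accession were added. The locus IDs of the lignin genes were taken from an earlier description of these data. Other genes were chosen after their values were seen. Lists by annotation, marker genes, and promoter motifs were not run, because the gene table matched 0 locus IDs and no sequences were at hand. Alternatives were another pseudocount (0.1), no filter, median-of-ratios scaling, a common FPKM sum, other limits of the rule, an adjusted p below 0.05, a block for the replicate number, and the omission of each replicate. Plots were drawn with matplotlib 3.10.9.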

Additional observations from a re-analysis of the deposited data

How the results depend on the processing

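The number of genes meeting the rule was 257 after median-of-ratios scaling, 232 of them among the 233, and 235 with a common FPKM sum, 222 of them among the 233. It was 322 and 178 at a fold limit of 3 and 5, and 234 to 306 with 1 replicate left out. The median log2 difference of 3.25 became 3.64 with a pseudocount of 0.1 and stayed between 3.09 and 3.44 with 1 replicate left out. Against 16 members beside another member, 12 (5.15%) lay within 10, 38 (16.3%) within 50, and 43 (18.5%) within 100 in locus number of another, beside 1.16%, 5.43%, and 9.67% of the other genes at these levels. Of 264 comparisons over 33 named members, 9 moved by more than the replicate SD, 7 of them with the pseudocount of 0.1. A reversal could not occur at these settings, because the rule set every mutant value at least 4 times above every wild-type value.

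The calls of limma depended more on the processing. Against 591 genes higher and 356 lower in *ssh1*, there were 338 and 149 without the filter on low values, and 1310 and 1103 at an adjusted p below 0.05. A block for the replicate number left 0 and 0, and 0 of the members, with 1385 genes higher at an unadjusted p below 0.05 and a fold change of at least 2 in limma. The samples share only a number: the deviations of same-numbered samples correlated at -0.10, -0.07, and -0.17. With 1 replicate left out, 57 to 517 genes were higher and 9 to 274 lower, and 39 to 183 of the 233 members were called, the lowest without wild-type replicate 1, then 46 without replicate 3, 73 without replicate 2, and 127 without *ssh1* replicate 1. Such a fit has 1 sample fewer. All 233 had an unadjusted p below 0.05 in limma in each fit. Nothing is read from this, because the rule chose the genes on the same values. Over the other settings the counts of members called, of the order of the *ssh1* replicates, and of genes meeting the rule stayed within 1.5 times. The number of fragments per library is unknown, so the error of a single low value is unknown.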

Other observations

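A pair of stretches of chromosome 1, chosen after their values were seen, held genes of the group among others that were too low for it. At LOC_Os01g50410, a member, *ssh1* had 38.0, 34.0, and 15.3 FPKM and the wild type 0.924, 2.94, and 0.914 FPKM. Nearby, LOC_Os01g50370 had 17.7, 19.4, and 7.09 FPKM in *ssh1*, LOC_Os01g50400 had 31.6, 20.7, and 5.98 FPKM, and LOC_Os01g50420 had 9.24, 8.86, and 4.19 FPKM, all of them below 1 FPKM in every wild-type replicate. Replicate 3 was the lowest *ssh1* replicate in all 4 loci, as it was in 69.5% of the 233 genes.

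Beside the members LOC_Os01g03340 and LOC_Os01g03360, the weaker loci LOC_Os01g03330 (18.5, 4.10, and 0.639 FPKM in *ssh1*) and LOC_Os01g03390 (4.96, 0.725, and 0.218 FPKM) had the same order of the *ssh1* replicates as these members, an order found in 37.8% of the 233 genes. In the wild type the weaker loci were at 0.0351 to 0.0394 FPKM and at 0.0851 to 0.382 FPKM, and LOC_Os01g03390 in *ssh1* replicate 3 was within its wild-type range. The loci among them, LOC_Os01g03350, LOC_Os01g03370, and LOC_Os01g03380, were listed at 0 in all samples.

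In other stretches, also chosen after their values were seen, an active locus between members was not above the wild type in *ssh1*. Between the members LOC_Os06g46900 and LOC_Os06g46950 on chromosome 6, LOC_Os06g46930 had 32.2, 30.3, and 32.1 FPKM in the wild type and 24.9, 16.8, and 28.2 FPKM in *ssh1*. Between LOC_Os01g50910 and LOC_Os01g50940 on chromosome 1, LOC_Os01g50934 had 56.3, 70.5, and 59.2 FPKM in the wild type and 50.7, 35.8, and 59.1 FPKM in *ssh1*.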
